A study of Mus musculus with 12 samples.

Results

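The matrix metalloproteinases (MMP), their tissue inhibitors (TIMP) and the ADAMTS proteases were examined in the descending aorta of adult and old mice. Members were all gene probes whose array name was Mmp, Timp or Adamts followed by a number, with an added letter allowed and the ADAMTS-like genes left out. This gave 44 genes with 58 probes among the 55681 gene probes of the array: 22 MMP genes, 4 TIMP genes and 18 ADAMTS genes. Total RNA came from male C57BL/6 mice aged 6 months (6 mice) or 20 months (6 mice), all bought from 1 breeder and kept on standard chow. The vessel had been rinsed with cold saline and cleared of the fat and connective tissue around it, and each mouse gave 1 array with a single dye (Cy3). The RNA is that of the whole vessel wall and of tissue left on it, with fat markers strong at both ages (given below). Fewer cells of a type and less RNA per cell therefore cannot be told apart.

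MMPs are zinc-dependent endopeptidases, made as inactive proenzymes, that cut collagens, gelatins, elastin and other matrix proteins. TIMPs bind the active site of MMPs and, in the case of Timp3, also that of several ADAMTS proteases. ADAMTS proteases are secreted enzymes with thrombospondin repeats, which cut the large proteoglycans versican and aggrecan, trim procollagens or act on single substrates such as von Willebrand factor. In the aorta the balance of these enzymes and inhibitors is known for its part in the turnover of elastic and collagen fibres, and their activity is set largely after translation, which RNA does not show.

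Every value below is a log2 signal relative to the 75th percentile of its array, so a difference of 1 is a doubling of signal, and levels of different probes are not set against each other. On each array 47.5% to 55.8% of the gene probes were well above background. Each of the 3 slides carried 4 of the arrays, 2 per age. The old mice were always hybridised in column 3 of a slide and the young never were, so age and column cannot be told apart. Heart muscle markers stood high in replicate 1 at each age, with a mean deviation of 2.59 at 6 months and 3.91 at 20 months, and T and NK cell markers in replicate 4 at 6 months (1.70). The comparison of the ages was therefore also made without these 3 arrays, and the values that moved are given with the results. Leaving them out does not level brown fat markers between the ages. The 3 arrays include the old mouse highest in these markers, replicate 1 (0.66), while the other old mice lay at -0.28 or below. The young mice highest in them, replicate 6 (0.98) and replicate 3 (0.75), stayed in. Mesothelium markers ranged from -0.28 to 2.36 in the young mice, highest in replicate 3, and from -2.02 to 0.75 in the old. Without that array, too, no member passed the threshold. As none passed with all arrays either, this does not show the part of mesothelium. Leaving it out also does not level these markers, as replicate 1 at 6 months (1.79) stayed in. Of the old mice, replicates 4 and 5 lay at 0.19 and 0.75, and the others at -1.31 or below.

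A gene was tested if a probe of it was well above background on 6 or more of the 12 arrays. By this rule 23 of the 44 genes were tested, namely 9 of 22 MMP genes, all 4 TIMP genes and 10 of 18 ADAMTS genes. Of the 58 member probes 28 passed, whereas 60.2% of all gene probes with a gene name did. The tested genes are given by role. None of the 4 genes grouped as collagenases (Mmp1a, Mmp1b, Mmp8 and Mmp13) was tested. Both gelatinases (Mmp2 and Mmp9), which cut denatured collagen and collagen IV, were. Among stromelysins and matrilysin, Mmp3 and Mmp11 were tested and Mmp10 and Mmp7 were not. Of the 6 membrane-type enzymes, which work at the cell surface, Mmp14, Mmp15 and Mmp17 were tested and Mmp16, Mmp24 and Mmp25 were not. Of the remaining MMPs, Mmp19 and Mmp23 were tested, and Mmp20 (the tooth enamel protease), Mmp21, Mmp27 and Mmp28 were not.

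Among the ADAMTS genes, 6 of 7 proteoglycanases were tested, all but Adamts20. Both procollagen N-propeptidases (Adamts2 and Adamts14), which remove the amino-terminal propeptide of fibrillar procollagens, were tested. Neither Adamts7 nor Adamts12, which cut cartilage oligomeric matrix protein (Comp), was tested. Adamts13, the von Willebrand factor-cleaving protease, was above background on 0 of 12 arrays with both of its probes. Adamts6 and Adamts10 were tested, while Adamts16, Adamts17, Adamts18 and Adamts19 were not. Of the 21 untested genes, 12 were above background on no array with any probe, and the other 9 on 1 to 3 arrays. The most was 3 arrays, for Mmp24. For none of the 29 probes of these genes could a fold between the ages be bounded above 1, so their levels cannot be compared between the ages.

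**Figure D1:**
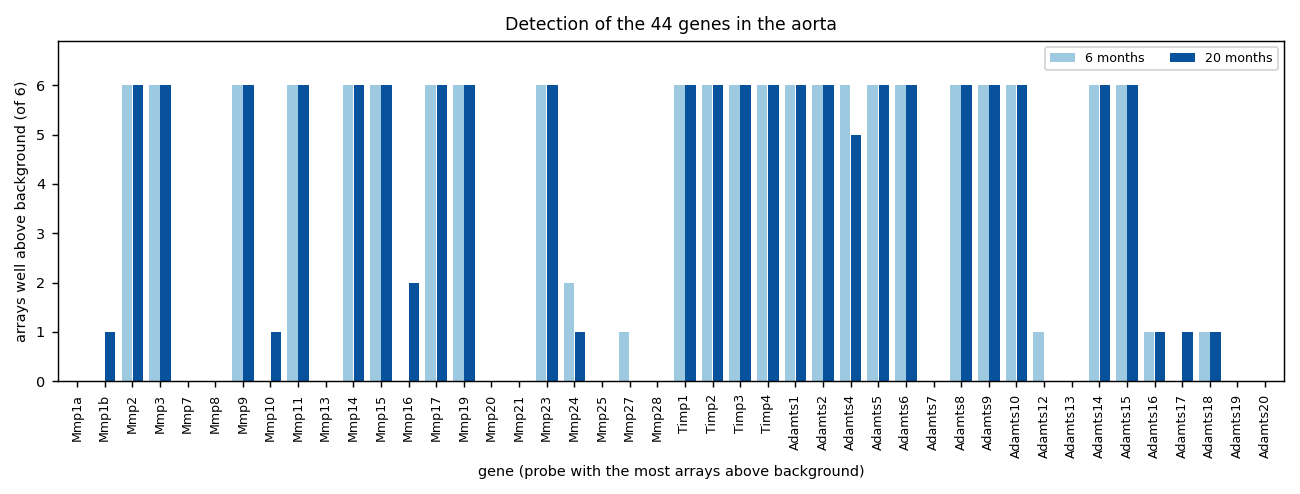
Number of arrays, of 6 at each age, on which the best detected probe of each of the 44 genes stood well above background. Genes were either above background on nearly every array or on at most 3 of 12. Adamts4 was the 1 tested gene below 6 of 6 at an age, with 5 arrays at 20 months.

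Several of the MMP genes lie side by side in the genome. On chromosome 9, 9 of them have their probes within 415 kb (chr9:7282762-7697700, build mm9), and 1 of these 9, Mmp3, was tested. Of the other 13 MMP genes 8 were tested, and of all 35 members elsewhere 22 were. Promoter windows of 300 bases (250 before to 50 after the start, RefSeq, GRCm38.p6) were matched for 30 of the 44 members, among them all 9 genes of the chromosome 9 group. They were searched on both strands for the AP-1 element TGANTCA, which binds Fos and Jun dimers, the TATA box TATAAA and the GC box GGGCGG, which binds Sp1. These motifs do not overlap one another in letters. The AP-1 element was found in 7 of the 9 chromosome 9 genes (Mmp1a, Mmp1b, Mmp3, Mmp7, Mmp10, Mmp13 and Mmp20), in 0 of 21 other members and in 8.97% of all genes of the table. The TATA box was found in 8 of the 9 genes, in 2 of the 21 others (Adamts1 and Mmp21) and in 15.7% of all genes. The GC box was found in 0 of the 9 genes, in 17 of the 21 others and in 38.2% of all genes. Of the 12 tested members outside the group that have a window, 11 held a GC box.

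The 120 bases before the start are shown for the single detected gene of the chromosome 9 group (Mmp3), for 2 untested neighbours (Mmp10 and Mmp13) and for 2 inhibitors (Timp1 and Timp3), because Mmp3 holds the same 2 motifs as these neighbours. They lie at chr9:7445702-7445821, chr9:7502222-7502341, chr9:7272394-7272513, chrX:20870046-20870165 and chr10:86300292-86300411, all on the plus strand of GRCm38.p6. Capitals mark the AP-1 element and the TATA box in the MMP genes, and the GC box, here on the minus strand, in the TIMP genes.
Mmp3: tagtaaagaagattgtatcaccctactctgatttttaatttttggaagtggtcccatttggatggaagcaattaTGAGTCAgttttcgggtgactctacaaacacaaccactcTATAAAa
Mmp10: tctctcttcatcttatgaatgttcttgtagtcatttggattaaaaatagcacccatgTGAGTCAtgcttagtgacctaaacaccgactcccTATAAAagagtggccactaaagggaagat
Mmp13: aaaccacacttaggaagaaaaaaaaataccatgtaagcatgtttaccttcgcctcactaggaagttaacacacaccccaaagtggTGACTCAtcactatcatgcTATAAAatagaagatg
Timp1: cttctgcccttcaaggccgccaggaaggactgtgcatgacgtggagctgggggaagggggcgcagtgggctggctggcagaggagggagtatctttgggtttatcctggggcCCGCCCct
Timp3: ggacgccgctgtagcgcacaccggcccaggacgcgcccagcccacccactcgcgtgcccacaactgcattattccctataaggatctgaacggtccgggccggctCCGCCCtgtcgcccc
A match is a description of the letters and shows no binding. The AP-1 element began 46 bases before the start in Mmp3, 63 in Mmp10 and 35 in Mmp13. Mmp3 was above background on all 12 arrays, Mmp10 on 1 and Mmp13 on 0.

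The ages were compared with limma over all 16740 genes tested, with Benjamini-Hochberg adjustment over all of them. No member passed an adjusted p of 0.05, where 0.317% of all genes did (44 genes higher at 20 months, 0.263%, and 9 lower, 0.0538%). At an unadjusted limma p under 0.05 there were 3 of 23 members (13%), Adamts14, Mmp3 and Mmp2, beside 8% of all genes. All 3 were higher at 20 months, beside 4.58% of all genes higher at that limit. No member had ages that did not overlap, a state of 0.818% of all genes. The mean was higher at 20 months in 12 members and lower in 11. The median change over the tested members was -0.05 for the MMP genes, 0.05 for the TIMP genes and 0.08 for the ADAMTS genes, with -0.02 over all genes. Without the 3 arrays with heart muscle or T and NK cell markers no member passed either, the smallest adjusted limma p being 0.186 for Adamts14, whose adjusted p ranged from 0.0748 to 0.921 over all alternatives. The medians without them were 0.02 for the MMP genes, 0.05 for the TIMP genes and 0.04 for the ADAMTS genes. The sign of 1 member turned (Mmp17), and 13 others moved by over 1.5 times with the same sign. These were Adamts1 (0.20), Adamts5 (-0.28), Adamts6 (-0.06), Adamts8 (0.36), Adamts9 (0.14), Adamts10 (0.01), Mmp9 (-0.17), Mmp14 (0.02), Mmp15 (-0.18), Mmp19 (-0.41), Mmp23 (0.16), Timp2 (-0.01) and Timp4 (-0.01).

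The intervals bound the differences that these arrays leave room for. The 95% interval of the change stayed within 2-fold in both directions for all 23 tested members and within 1.5-fold for 19. The 4 that reached past 1.5-fold were Mmp19, Timp1, Adamts4 and Adamts8, and the widest, that of Adamts4, reached 1.83-fold. With 6 arrays per age, their number limits this precision.

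**Figure D2:**
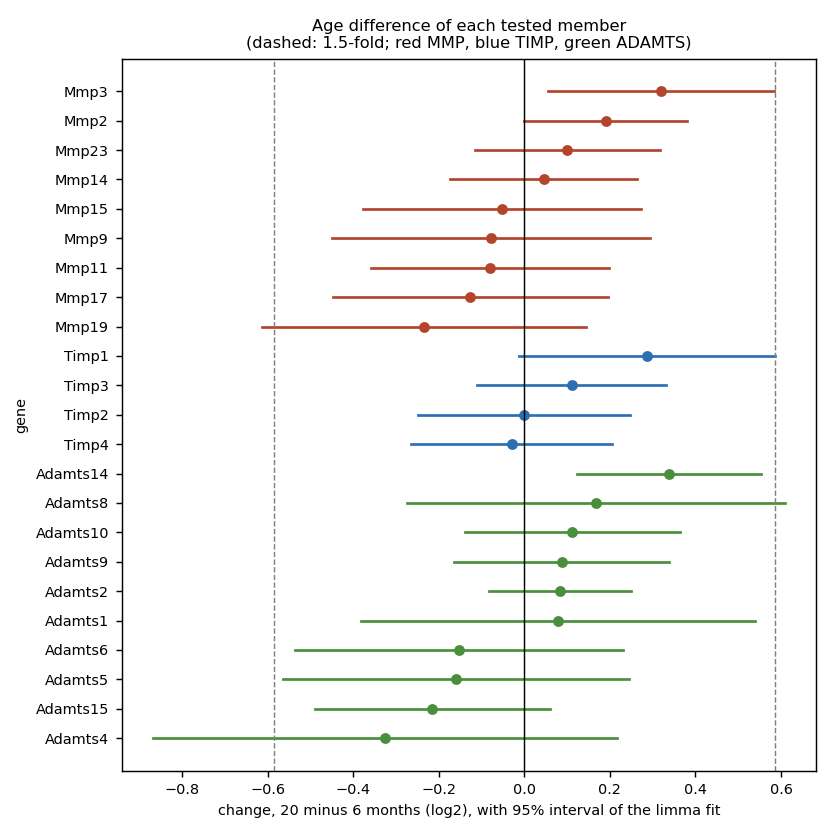
Age difference (20 minus 6 months, log2) of each tested member, with its 95% interval from the limma fit over all genes, grouped by family and ordered by size. The dashed lines stand at 1.5-fold. The intervals of 3 members, Adamts14, Mmp3 and Mmp2, leave out 0, and none passed the adjusted threshold.

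Among the MMP genes, stromelysin-1 (Mmp3), which cuts proteoglycans, laminin and fibronectin and activates other proMMPs, had the largest difference. The signal of Mmp3 (chr9:7455751-7455810, mm9) ranged from 2.66 to 3.34 with a median of 3.05 at 6 months, and from 3.19 to 3.48 with a median of 3.36 at 20 months. All 6 old mice lay above the median of the 6-month mice and 3 lay above the highest of them, so the ages overlapped. The difference was 0.32 ± 0.12 (SE, 95% interval 0.06 to 0.58), which is 1.25-fold, with an unadjusted limma p of 0.0212 and an adjusted p of 0.507. It was 0.21, 0.51 and 0.24 within the 3 slides, and 0.33 without the 3 arrays named above. The spread between mice was smaller at 20 months (SD 0.11) than at 6 months (SD 0.29).

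The gelatinase Mmp2, made by smooth muscle cells and fibroblasts and activated at the cell surface by Mmp14, ranged from 1.71 to 2.14 with a median of 2.04 at 6 months and from 1.99 to 2.39 with a median of 2.18 at 20 months. Of the old mice 5 lay above the median at 6 months and 4 above the highest value there. The difference was 0.19 ± 0.09 (SE, interval 0.00 to 0.38) with an unadjusted limma p of 0.0497 and an adjusted p of 0.624. The lowest value at 6 months belonged to replicate 4, whose T and NK cell markers were high, and without the 3 arrays the difference was 0.13. The signal of Mmp14 ranged from -0.27 to 0.14 with a median of -0.09 at 6 months and from -0.33 to 0.11 with a median of -0.02 at 20 months. The groups of Mmp14 covered the same range, and the difference was 0.05 ± 0.10 (SE, interval -0.17 to 0.26; limma, adjusted p = 0.929).

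The other gelatinase, Mmp9, which is stored in neutrophils and made by macrophages, ranged from -3.01 to -2.02 with a median of -2.38 at 6 months and from -2.82 to -2.35 with a median of -2.60 at 20 months. All 6 old mice lay inside the range of the young ones. The difference was -0.08 ± 0.17 (SE, interval -0.45 to 0.29; limma, adjusted p = 0.927), and it was 0.02 without replicate 3 at 6 months. Mmp19, a secreted enzyme that cuts basement membrane components, ranged from -2.18 to -1.41 with a median of -1.81 at 6 months and from -2.53 to -1.56 with a median of -2.05 at 20 months. Its difference of -0.24 ± 0.18 (SE, interval -0.61 to 0.14) had an adjusted limma p of 0.761, and 5 of 6 old mice lay below the median of the young. Without the 3 arrays it was -0.41. The differences of the other tested MMP genes were 0.10 for Mmp23, -0.13 for the glycosylphosphatidylinositol-anchored Mmp17, -0.08 for the stromelysin-3 gene Mmp11 and -0.05 for Mmp15. The value of Mmp17 rests on replicate 1 at 20 months: without that array it was -0.03, and without the 3 arrays 0.03. The sign of Mmp15 turned in 2 of the 12 runs that leave out 1 array, most without replicate 6 at 6 months (0.05), and that of Mmp11 without replicate 2 at 6 months (0.01).

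**Figure D3:**
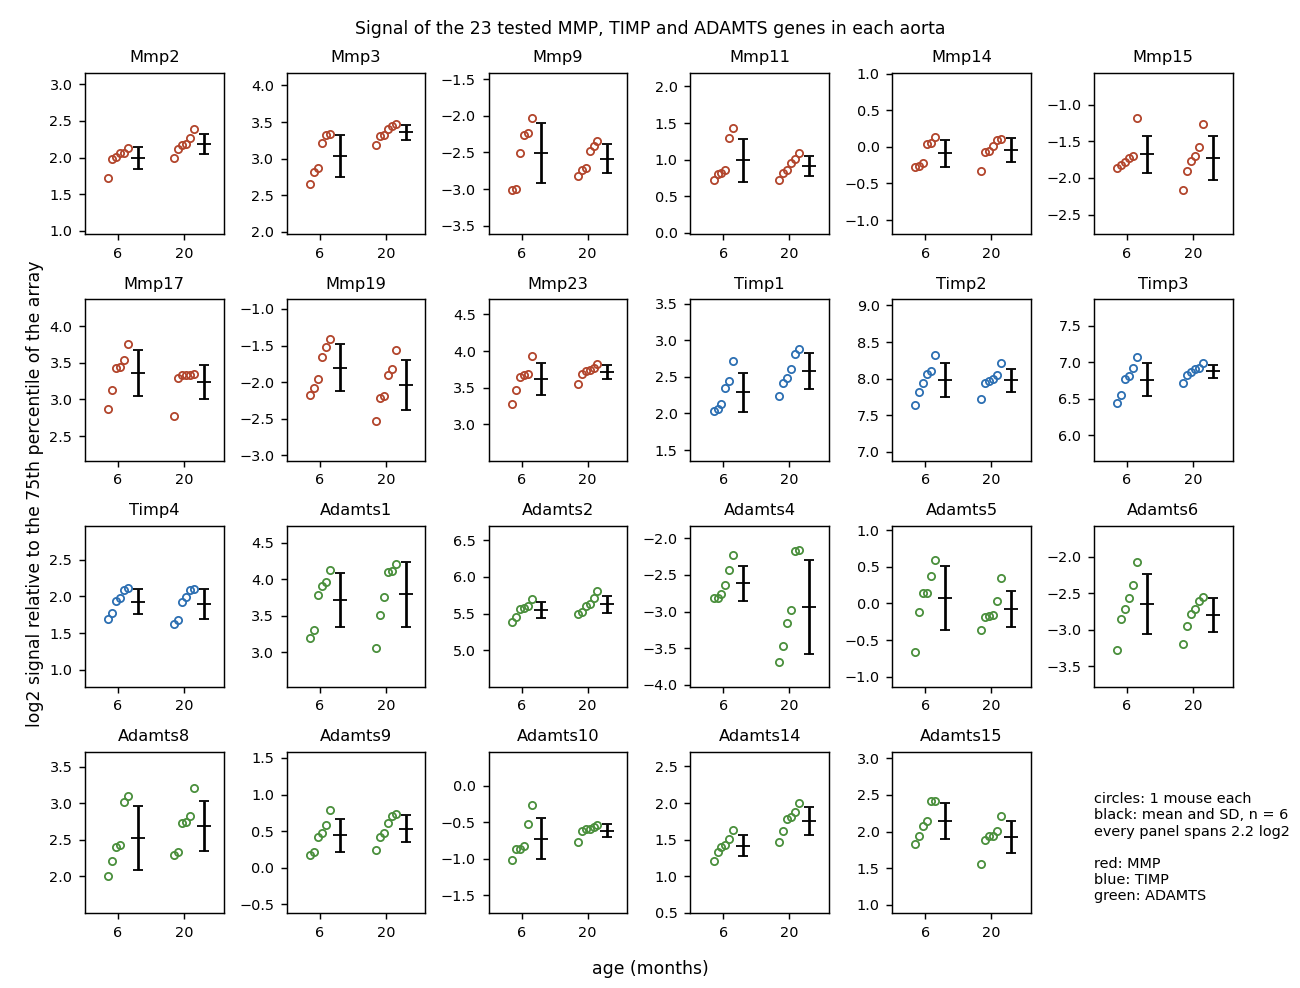
Log2 signal of the 23 tested members in each mouse, at 6 months (left) and 20 months (right) in each panel, with mean and SD (n = 6). Circles are sorted by value, and all panels span the same number of log2 units. The ages overlap in every panel. In Adamts14 the old mice run from 1.47 to 1.996 and the young from 1.20 to 1.64.

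All 4 inhibitors were measured on all 12 arrays, and none passed the threshold. Timp1, the inducible inhibitor that rises in fibrosis and inflammation in many tissues, ranged from 2.03 to 2.71 with a median of 2.24 at 6 months and from 2.23 to 2.89 with a median of 2.55 at 20 months. The upper part of the old group exceeded the young, with 2 of 6 old mice above the highest young mouse. The difference was 0.29 ± 0.14 (SE, interval -0.01 to 0.59) with an adjusted limma p of 0.657. It was 0.12, 0.38 and 0.36 within the 3 slides, and 0.34 without the 3 arrays.

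Timp3, the inhibitor that stays bound to the matrix, ranged from 6.45 to 7.07 with a median of 6.79 at 6 months and from 6.72 to 6.99 with a median of 6.89 at 20 months. The old mice lay inside the range of the young, and the difference was 0.11 ± 0.10 (SE, interval -0.11 to 0.33; limma, adjusted p = 0.802). Timp4, an inhibitor found in heart and vessels, ranged from 1.69 to 2.12 with a median of 1.96 at 6 months and from 1.62 to 2.10 with a median of 1.95 at 20 months. The ages lay on top of each other, with a difference of -0.03 ± 0.11 (SE, interval -0.26 to 0.20; limma, adjusted p = 0.961).

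Timp2, which inhibits MMPs and also takes part in the activation of proMMP2 by Mmp14, was measured by 2 probes that gave different values for the age difference. With the brighter probe (chr11:118163146-118163205, minus strand, mm9), near the end of the transcript, values ranged from 7.64 to 8.32 with a median of 7.999 at 6 months and from 7.72 to 8.21 with a median of 7.98 at 20 months. The ages overlapped fully and the difference was -0.001 ± 0.11 (SE, interval -0.25 to 0.25; limma, adjusted p = 0.999). The dimmer probe begins at base 652 of the transcript and spans an exon junction, its 60 bases being spread over 6778 bases of the genome (chr11:118171964-118178741, minus strand, mm9). It is printed here because it is the probe with the larger difference.
Timp2, junction probe: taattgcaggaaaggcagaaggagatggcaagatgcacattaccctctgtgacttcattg
With this probe values ranged from 3.59 to 4.01 with a median of 3.78 at 6 months and from 3.93 to 4.13 with a median of 3.98 at 20 months, so that the old mice lay in the upper part of the young range or above it. The difference was 0.22 ± 0.08 (SE), with an unadjusted limma p of 0.024 and an adjusted p of 0.566 in a fit of every probe. In that fit 0.257% of 27579 probes passed the adjusted threshold and 7.56% had an unadjusted p under 0.05. The difference between the 2 probes was not tested.

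Of the ADAMTS genes, the procollagen N-propeptidase Adamts14 had the smallest p of all members and stood at rank 282 of the 16740 genes. Its signal (chr10:60659860-60659919, minus strand, mm9) ranged from 1.20 to 1.64 with a median of 1.41 at 6 months and from 1.47 to 1.996 with a median of 1.80 at 20 months. All 6 old mice lay above the median of the young and 4 lay above the highest of them. The difference was 0.34 ± 0.10 (SE, interval 0.12 to 0.55), or 1.26-fold, with an unadjusted limma p of 0.00483 and an adjusted p of 0.287. It was 0.31, 0.42 and 0.29 within the 3 slides, and 0.43 without the 3 arrays. A second probe of Adamts14, nearer the middle of the transcript from base 2660 (chr10:60668150-60668209, minus strand, mm9), was above background in 2 of 6 young and 1 of 6 old mice. It therefore gives no second measurement of this difference, and its sequence is printed to identify it.
Adamts14, second probe: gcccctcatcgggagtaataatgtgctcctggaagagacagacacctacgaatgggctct
The related N-propeptidase Adamts2 ranged from 5.39 to 5.70 with a median of 5.56 at 6 months and from 5.50 to 5.81 with a median of 5.62 at 20 months. Its difference was 0.08 ± 0.08 (SE, interval -0.08 to 0.25; limma, adjusted p = 0.802), and a second probe gave 0.07 ± 0.11 (SE).

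The proteoglycanases went in both directions, 3 with a higher and 3 with a lower mean at 20 months. Adamts4, an aggrecanase that inflammatory cytokines induce, ranged from -2.82 to -2.23 with a median of -2.70 at 6 months and from -3.69 to -2.17 with a median of -3.07 at 20 months. The old mice spread on both sides of the young: 4 lay below the median of the young and 2 above the highest of them. The difference was -0.33 ± 0.25 (SE, interval -0.87 to 0.22; limma, adjusted p = 0.766). It was -0.09 with normexp background correction, -0.18 without replicate 6 at 20 months and -0.48 without replicate 3 at 20 months. Adamts5, the main aggrecanase of mouse cartilage, ranged from -0.67 to 0.59 with a median of 0.14 at 6 months and from -0.37 to 0.35 with a median of -0.17 at 20 months. All old mice lay within the young range, with a difference of -0.16 ± 0.19 (SE, interval -0.56 to 0.25; limma, adjusted p = 0.848). It was -0.31 without replicate 6 and -0.06 without replicate 5 at 6 months.

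Adamts1, a protease that cuts versican in the vessel wall, ranged from 3.20 to 4.12 with a median of 3.85 at 6 months and from 3.06 to 4.20 with a median of 3.93 at 20 months. The spread was wide at both ages, and the difference was 0.08 ± 0.21 (SE, interval -0.38 to 0.54; limma, adjusted p = 0.943). Leaving out replicate 1 at 20 months gave 0.23 and leaving out replicate 1 at 6 months -0.02. Within the 3 slides it was -0.58, 0.09 and 0.72, so that the sign was not the same on all slides. Adamts15, another versican-cleaving enzyme, ranged from 1.84 to 2.42 with a median of 2.11 at 6 months and from 1.56 to 2.21 with a median of 1.94 at 20 months. Of the old mice 5 lay below the median of the young, and the difference was -0.22 ± 0.13 (SE, interval -0.49 to 0.06; limma, adjusted p = 0.698).

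Differences of the remaining ADAMTS genes were 0.17 for Adamts8, 0.09 for Adamts9, 0.11 for Adamts10 and -0.15 for Adamts6. Adamts10 and Adamts6 are close relatives tied to fibrillin microfibrils. Over all families, 9 of the 23 members had the same sign on all 3 slides, beside 37.2% of all genes. They included Adamts14, Mmp3, Mmp2 and Timp1 with a higher mean at 20 months and Adamts15 and Mmp19 with a lower one.

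Besides Timp2, 4 genes had 2 probes that passed the filter. Their probes gave differences of the same sign: 0.08 and 0.07 for Adamts2, -0.16 and -0.06 for Adamts5, 0.17 and 0.08 for Adamts8, and -0.08 and -0.09 for Mmp11. Timp2 was the 1 gene of the 5 in which the probes differed in sign. Its brighter probe, at -0.001 ± 0.11 (SE), had no clear sign.

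**Figure D4:**
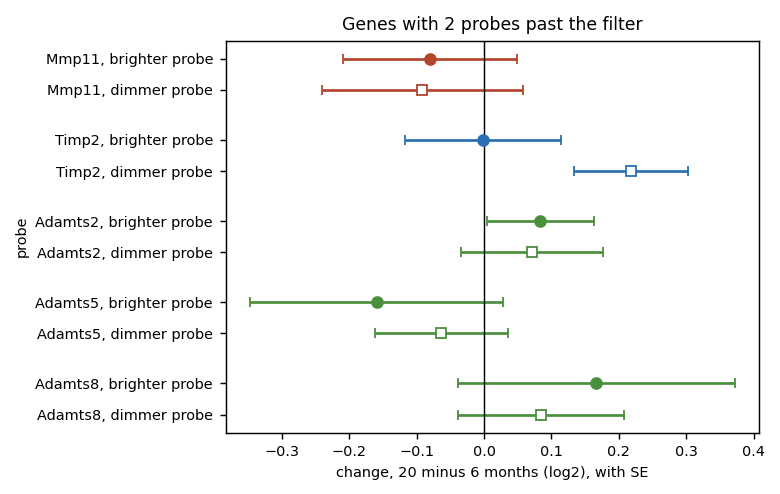
Age difference (20 minus 6 months, log2, with SE, n = 6 mice per age) for the 5 members with 2 probes past the filter, the brighter probe as a filled circle and the dimmer as an open square. The pairs lie close together except for Timp2, with -0.001 and 0.22.

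The spread between mice was smaller at 20 months in 16 of the 23 members, which is near the share of all genes with a smaller spread, 65.9%. Among the members with a larger spread at 20 months, Adamts4 had the largest ratio, with an SD of 0.24 at 6 months and 0.64 at 20 months. Its signal was low, and its probe was well above background on 5 of 6 old arrays. Leaving out any 1 array, the count of members with a smaller spread at 20 months lay between 15 and 19 of 23.

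Genes that act on or with these families were read from 5 lists, chosen with earlier results of these data known, and no gene of any of them passed the adjusted limma threshold that 0.317% of all genes passed. The list of the plasminogen system and the proprotein convertases holds activators of proMMPs and also inhibitors of plasminogen activation. Of its genes 9 were tested and 6 had a higher mean at 20 months (median change 0.22, 3 with an unadjusted limma p under 0.05). The 6 included the inhibitor gene Serpine2 (0.22 ± 0.11 SE), and the genes of plasminogen (Plg) and urokinase (Plau) were not tested. The smallest p belonged to the convertase Pcsk5 (0.38 ± 0.11 SE; limma, adjusted p = 0.304), and the urokinase receptor Plaur (0.36 ± 0.13) and the tissue activator Plat (0.27 ± 0.13) were also among those with small p. Of other inhibitors, anchors and endocytic receptors 8 were tested, with 6 higher (median 0.07, 1 with an unadjusted limma p under 0.05). Rarres1 differed by 0.49 ± 0.11 (SE; limma, adjusted p = 0.119) without overlap of the ages, while Reck, a membrane-anchored inhibitor of several MMPs, differed by 0.07 ± 0.10 (SE) and the endocytic receptor Lrp1 by 0.13 ± 0.08.

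Of the ADAMTS-like proteins, which resemble ADAMTS without the protease domain, 5 were tested and 4 had a higher mean (median 0.11, 1 with an unadjusted limma p under 0.05), led by Adamtsl5 (0.25 ± 0.10 SE; limma, adjusted p = 0.562). Of the list of membrane-bound ADAM proteases, meprins and tolloid proteases 11 were tested, 5 higher and 6 lower (median -0.05, 1 with an unadjusted limma p under 0.05). They were ADAM genes and the genes of the secreted tolloid proteases, Bmp1 and Tll1, and neither meprin gene was tested. Adam19 had the smallest p there, with -0.34 ± 0.13 (SE; limma, adjusted p = 0.518). Of 23 tested substrates 18 had a higher mean at 20 months (median 0.12), beside 43.9% of all genes with a higher mean. An unadjusted limma p under 0.05 was found for 7, beside 8% of all genes, with 6 of them higher at 20 months and 1, the collagen gene Col3a1, lower (-0.28 ± 0.10 SE). The fibrillar collagen genes Col1a1 (-0.10 ± 0.13) and Col1a2 (-0.04 ± 0.08) had lower means too. The means of the fibrillar collagen genes Col5a1 (0.09 ± 0.11), Col5a2 (0.12 ± 0.11) and Col2a1 (1.26 ± 0.62) were higher. The signal of Col2a1 was low and widely spread at 6 months (mean -3.94, SD 1.6). The interval of its change ran from -0.07 to 2.58 (limma, adjusted p = 0.659). The 6 were led by versican, Vcan (0.62 ± 0.12 SE; limma, adjusted p = 0.0637), which ADAMTS proteoglycanases cut, and by Comp (0.72 ± 0.16 SE; limma, adjusted p = 0.120). Biglycan (Bgn, 0.41 ± 0.12) and fibronectin (Fn1, 0.50 ± 0.15) followed. Elastin, Eln, differed by 0.15 ± 0.17 (SE; limma, adjusted p = 0.848). The difference between substrates and proteases was not tested.

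Markers of the cell types of the vessel and its surroundings were read beside the members. All 8 smooth muscle, 8 fibroblast and 8 endothelium markers passed the filter. All 6 brown fat markers had a lower mean at 20 months (median change -0.51), none past the adjusted threshold, and their mean deviation ranged from -0.46 to 0.98 in the young mice and from -0.58 to 0.66 in the old. Ucp1, the uncoupling protein of brown fat, differed by -0.64 ± 0.31 (SE; limma, adjusted p = 0.658). Its mean signal was 7.92 at 6 months and 7.28 at 20 months. That of the fat gene Adipoq was 7.17 and 7.02, so fat RNA was present at both ages. The 3 young mice with the highest brown fat markers held the 3 lowest Mmp3 values of their age. All 10 tested macrophage markers had a higher mean at 20 months (median change 0.27, none past the adjusted threshold), and all 6 mast cell markers did (median 0.64), of which the tryptase gene Tpsb2 passed (0.60 ± 0.11 SE; limma, adjusted p = 0.0401). All 5 tested mesothelium markers had a lower mean at 20 months (median -1.90, none past the threshold). All 5 tested cartilage markers had a higher mean at 20 months (median 0.52, 3 with an unadjusted limma p under 0.05, none past the threshold), and 3 of them, Comp, Acan and Col2a1, are also in the substrate list. Smooth muscle markers had a median change of 0.02 and fibroblast markers of 0.07. The part of these cells in the differences of Mmp3, Mmp2, Timp1 and Adamts14 was not tested.

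Over the 12 mice, 276 relations between the 23 members and 12 marker lists were computed, with 2-sided permutation tests (100000 permutations) and Benjamini-Hochberg adjustment over the 276. Pearson's r passed an adjusted permutation p of 0.05 in 4. Mmp23 was lower in mice with higher brown fat markers, with r = -0.90 (permutation p = 1e-05, the smallest that these permutations can give, adjusted 0.00276) and Spearman's rho = -0.93 (permutation p = 4e-05, adjusted 0.0110). The relation held within each age, with r = -0.98 in the young and -0.94 in the old mice, after removal of slide means (-0.92) and without the 2 mice farthest from the median (-0.81). Adamts1 was lower in mice with higher endothelium markers (r = -0.84, adjusted permutation p = 0.0455; rho = -0.86, adjusted 0.0449), and r was -0.85 without the 2 farthest mice. Mmp15 went the other way with endothelium markers (r = 0.83, adjusted permutation p = 0.0455), but its rho of 0.70 did not pass (adjusted 0.340). With fat markers Mmp15 had r = 0.76 (adjusted permutation p = 0.0846) and rho = 0.80 (adjusted 0.140), and Adamts1 r = -0.71 (adjusted 0.176). Mmp15 also had r = 0.72 with brown fat and -0.69 with smooth muscle markers (adjusted permutation p = 0.176 for each). Mmp23 also rose with smooth muscle markers (r = 0.85, adjusted permutation p = 0.0455), with rho = 0.58 (adjusted 0.403) and r = 0.55 without the 2 farthest mice. Within the ages its r was 0.86 in the young and 0.99 in the old mice, and after removal of slide means 0.90.

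Of the 3 members with the smallest p for age, Mmp2 had an r of -0.33 with brown fat markers (permutation p = 0.309, adjusted 0.654; rho -0.30, permutation p = 0.344, adjusted 0.703), with 0.04 in the young mice and -0.10 in the old. For Mmp3 r was -0.80 (permutation p = 0.00283, adjusted 0.112) and rho -0.86 (permutation p = 0.00065, adjusted 0.0449), with r = -0.74 in the young mice and -0.82 in the old. For Adamts14 r was -0.76 (permutation p = 0.00494, adjusted 0.151) and rho -0.77 (permutation p = 0.00503, adjusted 0.231), with -0.53 and -0.78 within the ages. Without the 2 farthest mice r was -0.65 for Mmp3 and -0.67 for Adamts14. A slide holds 4 arrays, too few for a value within 1 slide. Mmp17 rose with smooth muscle markers, with r = 0.83 (permutation p = 0.00131, adjusted 0.0723) and rho = 0.90 (permutation p = 0.00019, adjusted 0.0262). Within the ages this r was 0.91 in the young mice and 0.89 in the old. With brown fat markers Mmp17 had r = -0.68 (permutation p = 0.0137, adjusted 0.176) and rho = -0.43 (adjusted permutation p = 0.542). Within the ages that r was -0.99 in the young mice and -0.98 in the old.

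**Figure D5:**
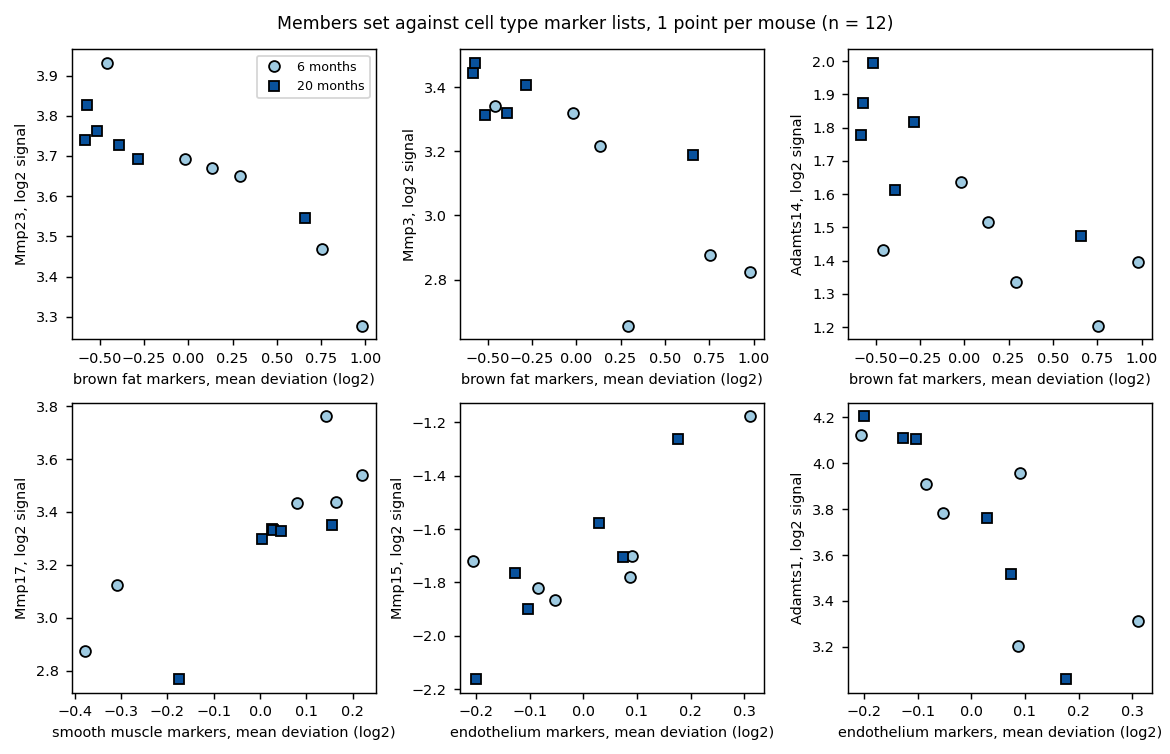
Log2 signal of 6 members against the mean deviation of a cell type's markers (log2), 1 point per mouse (n = 12). Mmp23, Mmp3 and Adamts14 run downwards with brown fat markers (r = -0.90, -0.80 and -0.76), Mmp17 upwards with smooth muscle markers (0.83), Mmp15 upwards (0.83) and Adamts1 downwards (-0.84) with endothelium markers.

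Between members, 253 pairs were compared in the same way, and in none did r pass an adjusted permutation p of 0.05 (34 had an unadjusted permutation p under 0.05). The pair with the smallest p was Mmp23 and Timp3 (r = 0.83, permutation p = 0.00084, adjusted 0.187), with r = 0.55 without the 2 farthest mice and -0.07 within the old mice. Mmp3 and Adamts14 had r = 0.77 (permutation p = 0.00299, adjusted 0.187) and rho = 0.73 (permutation p = 0.00859, adjusted 0.277), with r = 0.71 in the young mice, 0.62 in the old and 0.81 without the 2 farthest.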

How the data were processed

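RNA of the descending aorta of 12 mice was hybridised to 12 Agilent arrays of design 028005 with 1 dye. Per the file headers, the authors extracted spot values with Agilent Feature Extraction 10.7.1.1, and the deposited scanner files hold intensity values (the processed green signal with background subtracted and spatial and multiplicative detrending, not scaled between arrays). A second deposited file gives log2 values for these 12 arrays. Its scaling is not given in the sources used here, each probe's median is 0 in it, and it correlates at 0.897 to 0.983 per array with the centred scanner values. It served as an alternative.

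The intensity values were taken to log2, flagged spots were left out, replicate spots were averaged, and the 75th percentile of the gene probes was subtracted on each array. A probe with all spots flagged on some array was dropped (51 probes), which left 55630 of 55681. Probes well above background on at least 6 of 12 arrays were tested (27579), and each gene was represented by its probe with the highest mean signal, which gave 16740 genes. Names came from RefSeq accessions (26395 probes), symbols (4527) or the array (4507), and 20201 probes carry none. Probe positions are on mm9, and promoter sequences are RefSeq's on GRCm38.p6.

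Ages were compared with limma 3.58.1 in R 4.3.3 (tables read with data.table, version 1.17.8), in a model of age alone, with Benjamini-Hochberg adjustment over all genes. The procedure was tested on simulated data. Mice were taken as separate animals, 1 array each, and no 2 arrays held identical values. Members named with values at each age are the 3 with the smallest p in each family and 13 genes listed with the rule. The members, lists and alternatives were chosen with earlier results of these data known. The replicate numbers were checked as pairs and did not pair the mice: the correlations of deviations ranged from -0.361 to 0.323. The alternatives were normexp background correction (offset 50), quantile and median scaling, the deposited log2 values, no filter and a filter on all 12 arrays, slide as a block or alone, a replicate block, array weights, robust eBayes with a trend, every probe or the mean over probes, each array left out, and 3 arrays left out together. The rule left out 2 further genes, which, like 1 gene of the lists, are not reported here.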

Additional observations from a re-analysis of the deposited data

Results flagged for a closer look

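In 46 groups of 6 mice (23 members at each age), 4 held a mouse whose gap to its nearest neighbour was a larger share of the group's range than Dixon's 95% critical value. Chance flags about 1 in 20 groups, or 2.3 of 46. Mmp17 in replicate 1 at 20 months, the array with the highest heart muscle markers, was lowest at 2.77, with the nearest other mouse at 3.30. Mmp2 in replicate 4 at 6 months, whose T and NK cell markers were high, was lowest at 1.71, with the nearest at 1.98. Mmp15 in replicate 6 at 6 months was highest at -1.18 (nearest -1.70), and Adamts10 in replicate 3 at 20 months was lowest at -0.78 (nearest -0.62). The part of the other tissues' markers in these values was not tested.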

How the results depend on the processing

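No member passed the adjusted threshold under any of the 26 alternatives that allow a call. The smallest adjusted limma p of a member was 0.0748 (Adamts14, array weights; its range was 0.0748 to 0.921). Over these alternatives the change of Adamts14 ranged from 0.29 to 0.43, that of Mmp3 from 0.24 to 0.38, that of Mmp2 from 0.13 to 0.23 and that of Timp1 from 0.22 to 0.37. Adamts4 ranged from -0.48 to -0.09 and Adamts5 from -0.31 to -0.06. The sign changed for Timp2 in 10 alternatives, Timp4 in 5, Adamts1 in 3 and Mmp9 in 1, and in none for the other 11 members named with values. The count of all genes called, 53 as reported, was 33 with median scaling, 24 with no filter on dim probes, 80 with slide as a random block, 123 with array weights, 30 without the 3 arrays high in markers of other tissues, and from 21 to 59 with 1 array left out (30 or fewer without replicate 3, 4 or 5 at 6 months or without any of replicates 2 to 6 at 20 months). With the replicate block, although the numbers do not pair the mice, 7 genes and 0 members were called, and 1 of the 6 replicate numbers had its 2 mice most like each other. The median change of the ADAMTS genes was -0.065 on slide 1 alone and 0.21 on slide 3 alone, that of the MMP genes 0.12 on slide 3 alone. The cause of these shifts was not tested. Each slide alone (2 arrays against 2) gave values with no call. Another scaling moved the median over all genes by at most 0.03. Signals near background limit the 21 untested genes, of which none can be compared between the ages.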
